A study of Rattus norvegicus with 6 samples.

Results

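The insulin-like growth factor (IGF) axis was described through 10 genes, namely the ligands Igf1 and Igf2, the receptors Igf1r and Igf2r, and the binding proteins Igfbp2, Igfbp3, Igfbp4, Igfbp5, Igfbp6 and Igfbp7. Members were chosen by name, and each of the 10 names matched 1 row among the 30562 genes of the count table. IGF1 and IGF2 are secreted peptides that act through the receptor tyrosine kinase IGF1R, whose signal runs through adaptor proteins to the PI3K-AKT and MAP kinase cascades. In extracellular fluid most IGF is held by binding proteins, which store it, shield it from the receptor or bring it to the matrix, and proteases that cleave the binding proteins set it free. In cartilage and intervertebral disc IGF1 is known as an anabolic factor that favours the synthesis of aggrecan and collagen.

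Bulk RNA was measured in 6 libraries from tail discs of rats, with 3 libraries labelled as control and 3 labelled AF-PTK@LEV@SPP1. By the study's methods the animals were male Sprague-Dawley rats aged 12 weeks with a tail disc injured by needle puncture, and from 24 h after surgery this disc received 10 μL of PBS or of the particle, with treatment over 8 weeks and 3 rats per group. AF-PTK@LEV@SPP1 is a liposome fused with bacterial outer membrane vesicles that carries siRNA against Spp1 (1 mg/kg) and is targeted to the annulus fibrosus (AF) by a peptide that reactive oxygen species can release. Control discs were thus punctured too, and no unpunctured disc was analysed here. The sample records differ from this account, since they name an untreated control, 14 days of treatment, mice and macrophages sorted from digested discs. The gene identifiers are those of rat, and the cartilage collagen Col2a1 stood at 13858 to 31944 normalized CPM, that is counts brought to 1 common library size, in the 6 libraries. The libraries held 17942989, 16565291 and 17489851 counts in control replicates 1, 2 and 3, and 17074981, 15560728 and 17855184 in AF-PTK@LEV@SPP1 replicates 1, 2 and 3. A gene with 3 counts stood at 0.154 to 0.193 CPM, which was taken as the smallest measurable level and covers counting error only.

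Spp1, which encodes osteopontin and is the target of the siRNA, was read first. It had 8114, 4408 and 4414 normalized CPM in control replicates 1, 2 and 3, and 8047, 6893 and 8451 in AF-PTK@LEV@SPP1 replicates 1, 2 and 3. The 3 AF-PTK@LEV@SPP1-labelled libraries were thus not below the controls, and control replicate 1 lay among them. The log2 fold change was 0.31 (SE, the standard error, 0.37, adjusted p = 0.628 in edgeR's quasi-likelihood test with Benjamini-Hochberg adjustment). All directions that follow are therefore given relative to the labels, and by the study's methods the siRNA was designed for mouse Spp1.

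Libraries of a group were compared with each other before they were averaged. Control replicates 2 and 3 had 1.33 times the variance of counting noise over 14393 genes, and 16 of these genes differed, whereas in the other pairs within a group this ratio was 51.3 to 107. This pair lay close to sampling noise and was counted as 1 sample, which left n = 2 distinct control samples and n = 3 samples labelled AF-PTK@LEV@SPP1. In the fit over these 5 samples the counts of the pair were summed, and calls of members and listed genes that change when the 6 libraries are kept separate are given beside it. Control replicate 1 and the pair also differed in the osteoblast gene Bglap, with 624 normalized CPM in control replicate 1 against 12.1 and 12.6. AF-PTK@LEV@SPP1 replicates 1, 2 and 3 had 567, 872 and 757, so for Bglap it was the pair that stood apart from the other libraries. Among the AF-PTK@LEV@SPP1-labelled libraries, replicates 2 and 3 were rich in RNA of erythroid markers, and its source was not tested. Their 6 erythroid markers summed to 20420 and 14030 normalized CPM against 2498 in replicate 1.

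Between the groups, edgeR's quasi-likelihood test called 175 of 15537 genes higher (1.13%) and 400 lower (2.57%) in the AF-PTK@LEV@SPP1-labelled libraries, at a Benjamini-Hochberg adjusted p under 0.05. All 10 IGF axis members passed the filter on low counts. Igfbp6 was called higher, Igfbp3 and Igfbp4 were called lower, and the other 7 members did not pass. The median log2 fold change of the 10 members was -0.35, against 0.05 over all genes tested. When the 6 libraries were kept, 5 of the 10 members passed (1 higher and 4 lower), against 18.1% of 15042 genes, and the additional members were Igf1 and Igf2r. The values of 7 members did not overlap between the groups over the 5 distinct samples, which was also the case for 45.8% of all genes tested. Gene lengths were not used here, so levels of different members are not compared with each other.

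**Figure D1:**
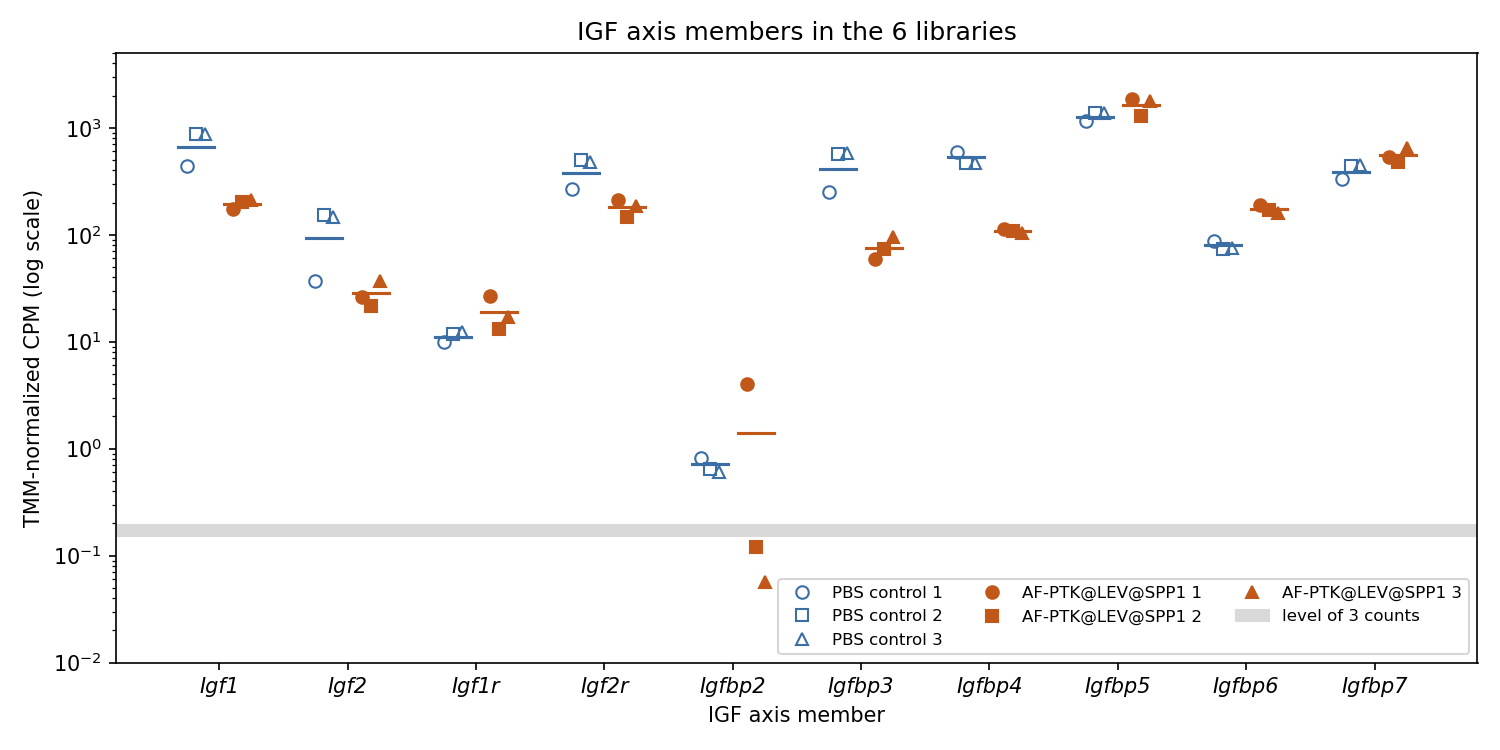
TMM-normalized CPM of the 10 IGF axis members on a log axis, with 1 symbol per library, open blue for PBS control and filled orange for AF-PTK@LEV@SPP1, bars for the means over n = 2 distinct control samples and n = 3 labelled samples, and a grey band for the level of 3 counts. Igfbp4 sat at 104 to 113 in the AF-PTK@LEV@SPP1-labelled libraries and at 464 to 590.4 in control, Igf2 of control replicate 1 lay level with AF-PTK@LEV@SPP1 replicate 3, and heights of different genes are not comparable because gene length was not used.

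Among the ligands, Igf1 encodes the growth factor that is made by the liver under growth hormone and locally by many tissues. It had 436, 872 and 880.0 normalized CPM in control replicates 1, 2 and 3, and 174, 201 and 211 in AF-PTK@LEV@SPP1 replicates 1, 2 and 3. Every AF-PTK@LEV@SPP1-labelled library lay below every control library, and control replicate 1 lay between the near-identical pair and the labelled libraries. The means were 656 ± 311 (SD, n = 2) in control and 195 ± 18.8 (SD, n = 3) in AF-PTK@LEV@SPP1, a 3.36-fold lower level. With a log2 fold change of -1.76 (SE 0.32), Igf1 narrowly missed the threshold in edgeR's quasi-likelihood test (adjusted p = 0.0522 after Benjamini-Hochberg adjustment), and it passed in edgeR with the 6 libraries kept (adjusted p = 0.0111) and with a replicate block added to those 6 libraries (adjusted p = 0.0398). Both of these fits count the near-identical control pair as separate samples, here and for each gene below. Over the 16 alternatives run, its adjusted p ranged from 8.46e-06 to 0.186 and it passed in 6. With control replicate 1 as the only control sample the log2 fold change was -1.17 (adjusted p = 0.122 in edgeR), so part of its size rested on the pair. Igf1 lies on chromosome 7 from 22282930 to 22359296 of the count table's annotation, whose rat genome build is not given in the sources used here.

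Igf2 encodes the ligand that is abundant before birth and is expressed from the paternal allele in most tissues. It had 37.1, 153 and 147 normalized CPM in control replicates 1, 2 and 3, and 26.4, 21.7 and 37.1 in AF-PTK@LEV@SPP1 replicates 1, 2 and 3. The near-identical control pair was high, whereas control replicate 1 stood level with AF-PTK@LEV@SPP1 replicate 3, so that the groups overlapped. The log2 fold change of -1.74 (SE 0.59) did not pass in edgeR's quasi-likelihood test (adjusted p = 0.157), nor with the 6 libraries kept (adjusted p = 0.0522). With control replicate 1 as the only control sample the log2 fold change was -0.39, so the size of the Igf2 difference rested on the pair. H19, the imprinted noncoding RNA that neighbours Igf2 and is expressed from the maternal allele, had 447, 1195 and 1197 normalized CPM in control and 102, 231 and 126 in AF-PTK@LEV@SPP1. Both genes were thus highest in the pair, but H19 did not overlap between the groups. Its log2 fold change was -2.44 (SE 0.54, adjusted p = 0.0772 in edgeR's quasi-likelihood test, 0.0197 with the 6 libraries kept and 0.0371 with the replicate block), and it was -1.56 with control replicate 1 as the only control sample (adjusted p = 0.267 in edgeR). Igf2 and H19 lie on the same strand of chromosome 1, 81275 bases apart with no gene of the table between them. In a bulk library, fewer cells of a type and less RNA per cell cannot be told apart, which holds for each gene described here.

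The receptors differed in opposite directions, and neither passed over the 5 distinct samples. Igf1r, the receptor tyrosine kinase that carries the signal of both ligands, had 9.95, 11.8 and 12.3 normalized CPM in control replicates 1, 2 and 3, and 27.0, 13.1 and 17.0 in AF-PTK@LEV@SPP1 replicates 1, 2 and 3. All AF-PTK@LEV@SPP1-labelled libraries lay above the controls, but replicate 2 did so by a small margin and replicate 1 was far above the rest. The log2 fold change of 0.78 (SE 0.34) did not pass in edgeR's quasi-likelihood test (adjusted p = 0.228), and no alternative brought it under 0.106. Igf2r encodes the cation-independent mannose 6-phosphate receptor, which takes IGF2 and tagged lysosomal enzymes to the lysosome. It had 267, 497 and 482 normalized CPM in control replicates 1, 2 and 3, and 211, 148 and 184 in AF-PTK@LEV@SPP1 replicates 1, 2 and 3. The groups did not overlap, and control replicate 1 was again the control library nearest to the AF-PTK@LEV@SPP1-labelled libraries. Igf2r was 2.09-fold lower, with a log2 fold change of -1.07 (SE 0.30) and an adjusted p of 0.115 in edgeR's quasi-likelihood test, which became 0.0316 with the 6 libraries kept and 0.126 with the replicate block. With control replicate 1 as the only control sample its log2 fold change was -0.57.

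The 3 members that passed were binding proteins, and they did not share 1 direction. Igfbp4 encodes a small binding protein that keeps IGF from its receptor until the protease PAPP-A cleaves it. It had 590.4, 464 and 473 normalized CPM in control replicates 1, 2 and 3, and 113, 109 and 104 in AF-PTK@LEV@SPP1 replicates 1, 2 and 3. The labelled libraries lay close together and far below every control, and here control replicate 1 was the highest library of all. Igfbp4 fell from 529 ± 86.4 (SD, n = 2) to 109 ± 4.14 (SD, n = 3), which is 4.87-fold, with a log2 fold change of -2.29 (SE 0.15, adjusted p = 0.0119 in edgeR's quasi-likelihood test). It passed in 13 of 16 alternatives, among which its log2 fold change ranged from -2.45 to -2.12. It lies on chromosome 10 from 83989591 to 84007225 of the same annotation.

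Igfbp3 encodes the main carrier of IGF in blood, where it forms a complex with the acid-labile subunit, and it is also secreted by chondrocytes and fibroblasts. It had 252, 566 and 579 normalized CPM in control replicates 1, 2 and 3, and 58.8, 72.8 and 94.7 in AF-PTK@LEV@SPP1 replicates 1, 2 and 3. Every labelled library was below every control, with control replicate 1 at less than the level of the pair. Igfbp3 fell 5.47-fold, from 412 ± 226 (SD, n = 2) to 75.4 ± 18.1 (SD, n = 3), with a log2 fold change of -2.46 (SE 0.40, adjusted p = 0.0439 in edgeR's quasi-likelihood test). The call was close to the threshold, passed in 11 of 16 alternatives and was lost in limma-voom (adjusted p = 0.0535). Igfbp3 lies on chromosome 14 from 82056347 to 82064083, next to Igfbp1, from whose 3′ end it is 3864 bases away. Igfbp1, a binding protein made by the liver, had no count in any of the 6 libraries.

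Igfbp6 encodes the binding protein that prefers IGF2 over IGF1. It had 86.5, 73.6 and 75.3 normalized CPM in control replicates 1, 2 and 3, and 188, 171 and 158 in AF-PTK@LEV@SPP1 replicates 1, 2 and 3. Groups were well separated, and control replicate 1 lay near the pair. Igfbp6 rose 2.14-fold, from 80.5 ± 8.51 (SD, n = 2) to 172 ± 15.0 (SD, n = 3), with a log2 fold change of 1.09 (SE 0.14, adjusted p = 0.0309 in edgeR's quasi-likelihood test). It passed in 11 of 16 alternatives, and its log2 fold change stayed between 0.98 and 1.19. It lies on chromosome 7 from 133276234 to 133280966.

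The opposite directions of Igfbp4 and Igfbp6 show within single libraries, a pair of genes set side by side after their values were seen. For each count of Igfbp4 there were 0.147, 0.159 and 0.159 counts of Igfbp6 in control replicates 1, 2 and 3, and 1.67, 1.56 and 1.51 in AF-PTK@LEV@SPP1 replicates 1, 2 and 3. This ratio within a library does not depend on the scaling between libraries, and it was nearly the same in control replicate 1 and in the pair. For each count of Igfbp3 there were 4.58, 2.45 and 2.38 counts of Igfbp5 in control, and 31.6, 17.8 and 18.9 in AF-PTK@LEV@SPP1. Igf1 per count of Igf2, by contrast, overlapped between the groups, at 11.7, 5.68 and 5.97 in control and 6.61, 9.25 and 5.67 in AF-PTK@LEV@SPP1.

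Igfbp5 and Igfbp7 did not pass the test. Igfbp5, which binds extracellular matrix and bone mineral, had 1157, 1386 and 1381 normalized CPM in control replicates 1, 2 and 3, and 1858, 1296 and 1795 in AF-PTK@LEV@SPP1 replicates 1, 2 and 3. Replicate 2 of the labelled libraries lay among the controls, and the log2 fold change was 0.37 (SE 0.25, adjusted p = 0.393 in edgeR's quasi-likelihood test). Igfbp7, a secreted relative of the family with low affinity for IGF, had 330.1, 442 and 452 normalized CPM in control replicates 1, 2 and 3, and 536, 474 and 651 in AF-PTK@LEV@SPP1 replicates 1, 2 and 3. Its groups did not overlap, though replicate 2 exceeded control replicate 3 by little, and the log2 fold change was 0.50 (SE 0.23, adjusted p = 0.238 in edgeR's quasi-likelihood test). The span of Igfbp7 overlaps that of Polr2b by 87 bases on the opposite strand, and since the use of strand is not given in the sources used here, reads of this stretch could belong to either gene. Igfbp2, a binding protein prominent in fetal tissue, was near the limit of detection, with 16, 10 and 10 counts in control replicates 1, 2 and 3, and 69, 2 and 1 in AF-PTK@LEV@SPP1 replicates 1, 2 and 3. Replicate 1 was thus the highest library and replicates 2 and 3 were under the level of 3 counts, so the log2 fold change of 0.96 (SE 1.63) rested on 1 library and was -2.99 without it.

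**Figure D2:**
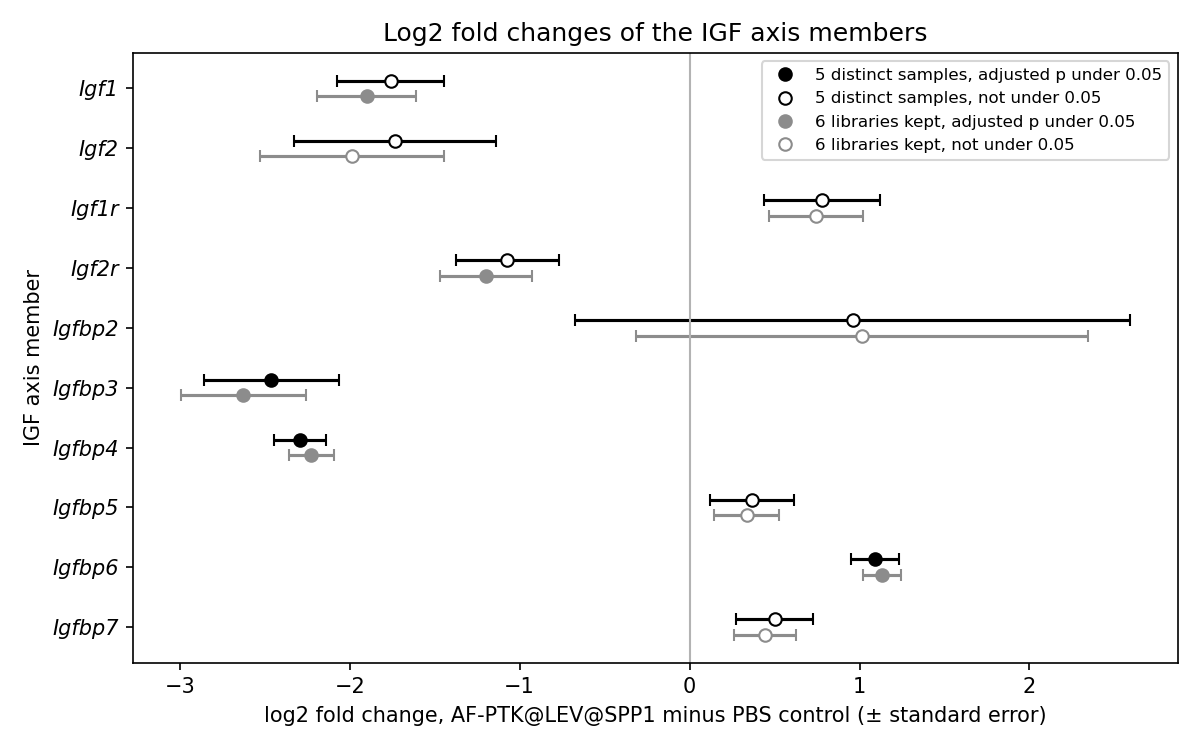
Log2 fold changes of the 10 IGF axis members, AF-PTK@LEV@SPP1 minus PBS control, with standard errors as bars, for the fit over 5 distinct samples (black) and the fit that keeps the 6 libraries (grey), filled where the Benjamini-Hochberg adjusted p of edgeR's quasi-likelihood test was under 0.05. Igfbp3, Igfbp4 and Igfbp6 were filled in both fits and Igf1 and Igf2r in the grey one alone, and the bar of Igfbp2 crossed 0, its log2 fold change being negative under 3 of its alternatives.

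The sizes of these differences stayed much the same when 1 AF-PTK@LEV@SPP1-labelled library was left out, while most calls by edgeR were lost. Without replicates 1, 2 and 3 in turn the log2 fold change was -2.35, -2.29 and -2.26 for Igfbp4, -2.34, -2.43 and -2.65 for Igfbp3, and 0.99, 1.10 and 1.15 for Igfbp6. Without replicate 2 or without replicate 3, edgeR's quasi-likelihood test called 0 genes of the whole table at an adjusted p under 0.05, while 3109 and 2699 genes had an unadjusted p under 0.05. DESeq2 called 1418 and 1153 genes on the same samples, among them 4 and 5 of the members, and limma-voom called 0 genes in both. In these 2 fits, the adjusted p from edgeR was 0.0679 and 0.135 for Igfbp4, 0.129 and 0.158 for Igfbp3, and 0.0913 and 0.137 for Igfbp6. Without replicate 1, edgeR's quasi-likelihood test called 113 of 15363 genes and Igfbp4 was the only member among them (adjusted p = 0.0408), where DESeq2 called 5 members among 2000 genes and limma-voom 1 among 87. With control replicate 1 as the only control sample, 3 genes of the whole table and no member were called in edgeR, where 5 members and 2572 of 16065 genes had an unadjusted p under 0.05, DESeq2 called 4 members and 822 genes, and limma-voom called 0 genes. Without control replicate 1 the call of Igfbp6 was lost (adjusted p = 0.0689) and Igf1 passed (adjusted p = 0.0337). In both of these fits the lone control sample is assumed to vary like the labelled ones.

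Promoter sequences of the 3 called members are shown because Igfbp3 and Igfbp4 fell together while Igfbp6 rose. RefSeq (GRCr8) gave a promoter entry for each of the 10 members, with a pair of entries for Igf2, and the 250 bases before the start were searched on both strands for the TATA box spellings TATAAA or TATATA, for the CCAAT box, for the GC box GGGCGG and for the AP-1 motif TGACTCA, all picked with the results known. The 100 bases before the start are printed 5′ to 3′ on the strand of the gene, with motif matches in capitals.
Igfbp3, chr14:86277945-86278044, minus strand: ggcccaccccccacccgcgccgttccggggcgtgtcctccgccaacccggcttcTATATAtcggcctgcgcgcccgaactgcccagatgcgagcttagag
Igfbp4, chr10:84491371-84491470, plus strand: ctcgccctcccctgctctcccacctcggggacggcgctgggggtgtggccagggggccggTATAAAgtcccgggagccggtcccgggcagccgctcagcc
Igfbp6, chr7:135154819-135154918, plus strand: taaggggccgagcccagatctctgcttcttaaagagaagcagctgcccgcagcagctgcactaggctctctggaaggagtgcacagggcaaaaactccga
TATATA in Igfbp3 begins 46 bases before the start, and TATAAA in Igfbp4 begins 40 bases before it. None of the 5 motifs was found in the window of Igfbp6. Each of these TATA spellings was held by 1 of the 11 member entries, so the entries of Igf1, Igf2 and Igf2r, which also had negative log2 fold changes, held neither. Among all 33469 promoter entries, 5.45% held TATATA and 12.9% held TATAAA in the same 250 bases. GGGCGG was held by 5 of the 11 member entries (those of Igf1r, Igf2r, Igfbp2 and Igfbp7 and 1 of Igf2) and by 30.5% of all entries. The CCAAT box was in no member entry and in 34.0% of all entries, and the AP-1 motif in none and in 4.05%. These matches describe letters and name no site in use.

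Genes around the IGF axis were read from a list of 57 genes in 7 arms, of which 53 passed the filter on low counts. The list was written with earlier results of these data known. The shares of its genes and arms that passed are therefore description only and no evidence of enrichment. In edgeR's quasi-likelihood test 1 was higher and 8 were lower at an adjusted p under 0.05, which is 17% of the list against 3.7% of all genes tested, and the median log2 fold change of the list was -0.13 against 0.05. The 6 libraries kept apart gave 18 of 52 genes tested, 3 higher and 15 lower, or 34.6% against 18.1% of all genes. Most of the genes that fell belonged to the proteases and protease inhibitors that act on binding proteins, where 6 of 13 genes (46.2%) fell and none rose, and the median of the arm was -1.07 on the log2 scale. With the 6 libraries kept, 9 of the 13 were lower, the further genes being Pappa and the plasminogen activator genes Plat (adjusted p = 0.0336 in edgeR) and Plau (adjusted p = 0.0329 in edgeR), which are named here to complete the count.

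In that arm Mmp3, which encodes stromelysin-1, had 919, 1737 and 1782 normalized CPM in control replicates 1, 2 and 3, and 89.6, 97.3 and 77.8 in AF-PTK@LEV@SPP1 replicates 1, 2 and 3. The AF-PTK@LEV@SPP1-labelled libraries were far below every control, with a log2 fold change of -3.93 (SE 0.33, adjusted p = 0.0194 in edgeR's quasi-likelihood test). Mmp13, a collagenase, fell from 5326 ± 1079 (SD, n = 2) to 705 ± 127 (SD, n = 3), a log2 fold change of -2.92 (adjusted p = 0.0196 in edgeR). Ctsk, which encodes the collagen-cleaving protease cathepsin K of osteoclasts, fell by 2.93 on the log2 scale, from 3389 ± 985 to 448 ± 147 (adjusted p = 0.0306 in edgeR). Mmp9, a gelatinase, fell by 1.66 on the log2 scale (adjusted p = 0.0260 in edgeR), and Adam12, a membrane protease named here to complete the count, by 1.86 (adjusted p = 0.0427 in edgeR). With the replicate block 5 of the 13 genes passed, since Adam12 did not (adjusted p = 0.0571 in edgeR). These enzymes have many substrates besides binding proteins.

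Stc1 encodes stanniocalcin-1, an inhibitor of PAPP-A. It had 15.6, 28.7 and 27.1 normalized CPM in control replicates 1, 2 and 3, and 5.76, 6.57 and 7.74 in AF-PTK@LEV@SPP1 replicates 1, 2 and 3. Its groups did not overlap, and the log2 fold change of -1.71 passed narrowly (SE 0.29, adjusted p = 0.0480 in edgeR's quasi-likelihood test, and 0.0505 in the robust fit). Pappa, which encodes the IGFBP4 protease PAPP-A, had 11.2, 13.1 and 13.4 normalized CPM in control and 7.46, 8.01 and 7.97 in AF-PTK@LEV@SPP1. Its groups did not overlap either, but the log2 fold change of -0.66 did not pass (adjusted p = 0.0884 in edgeR, and 0.0192 with the 6 libraries kept). Pappa2, a protease of IGFBP5 and IGFBP3, stood at 0.53 to 1.95 normalized CPM over all libraries, and Stc2, the other stanniocalcin, at 43.7 to 79.5. Neither passed (log2 fold change -0.29 and 0.32, adjusted p = 0.816 and 0.527 in edgeR).

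**Figure D3:**
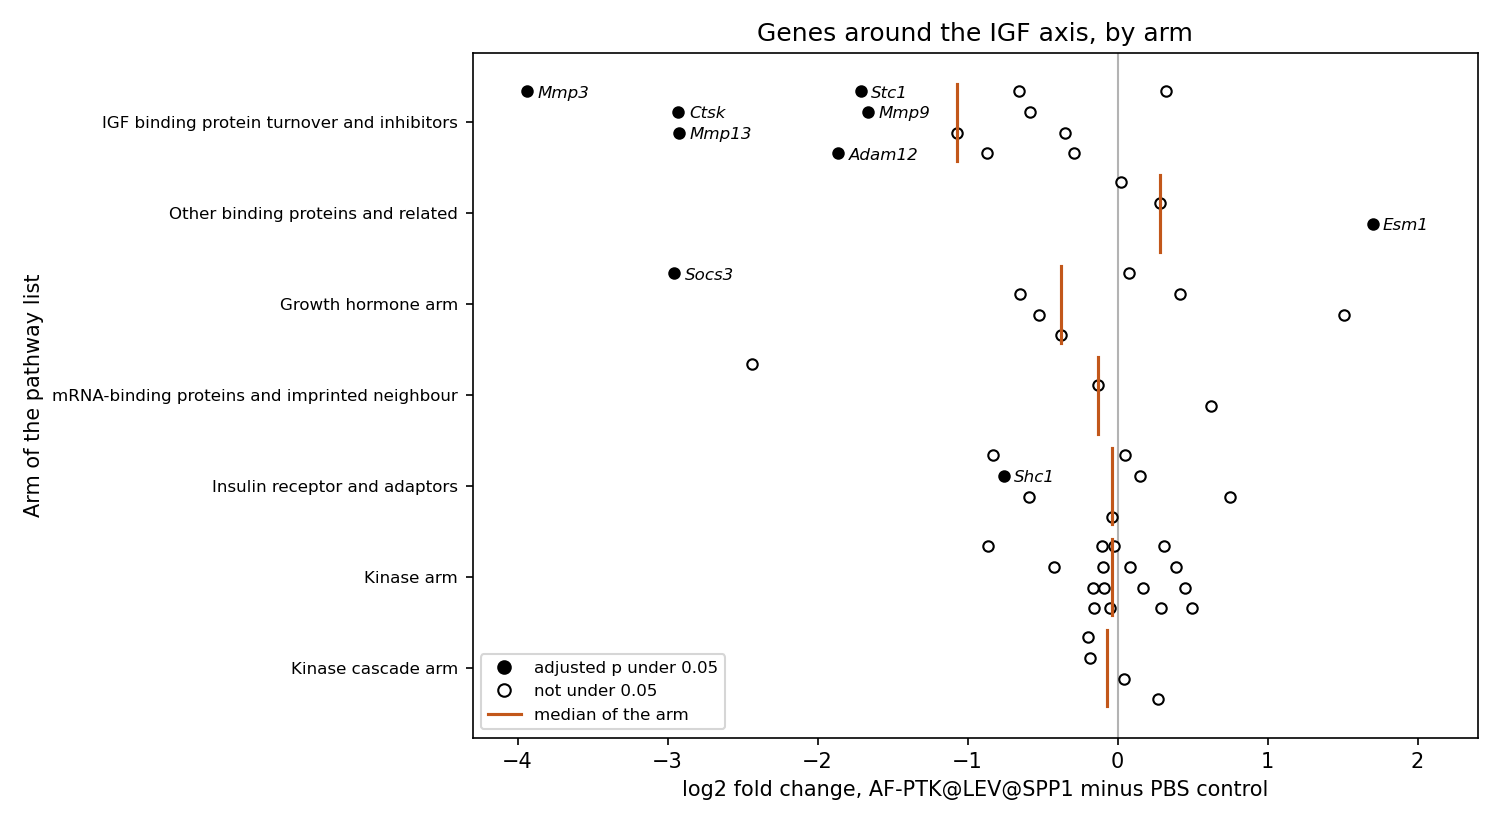
Log2 fold changes, AF-PTK@LEV@SPP1 minus PBS control, of the 53 tested genes of the list around the IGF axis, 1 row of points per arm with points spread vertically for legibility, filled where the adjusted p of edgeR's quasi-likelihood test was under 0.05, and an orange line at the median of each arm. The 6 filled genes of the protease arm lay between -3.93 and -1.66, and no gene of the 2 kinase arms was filled.

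The arm of other binding proteins and related genes held Esm1, Igfals, Kazald1, Igfbpl1 and Igfbp1, of which 3 were tested. Esm1, which encodes a proteoglycan of endothelial cells with a domain like that of IGF binding proteins, had 13.1, 10.7 and 8.66 normalized CPM in control replicates 1, 2 and 3, and 30.1, 42.7 and 38.4 in AF-PTK@LEV@SPP1 replicates 1, 2 and 3. The groups were apart by more than the spread within either, and Esm1 rose with a log2 fold change of 1.70 (SE 0.22, adjusted p = 0.0316 in edgeR's quasi-likelihood test). Igfals, which encodes the acid-labile subunit, had 2 to 13 counts per library and did not pass (log2 fold change 0.29, adjusted p = 0.813 in edgeR). Kazald1 did not pass either (log2 fold change 0.03, adjusted p = 0.969 in edgeR).

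In the growth hormone arm, 1 of 7 genes passed, and 3 did with the 6 libraries kept. The shares of all genes tested that passed in these fits were 3.7% and 18.1%. Socs3, a feedback inhibitor of cytokine receptors that signal through JAK kinases, had 114, 161 and 157 normalized CPM in control replicates 1, 2 and 3, and 18.3, 15.2 and 19.6 in AF-PTK@LEV@SPP1 replicates 1, 2 and 3. Each labelled library was far below each control, and Socs3 fell with a log2 fold change of -2.95 (SE 0.20, adjusted p = 0.0119 in edgeR's quasi-likelihood test). Ghr, the growth hormone receptor, had 68.4, 38.4 and 38.2 normalized CPM in control and 141, 199 and 119 in AF-PTK@LEV@SPP1. Its groups did not overlap, but the log2 fold change of 1.51 did not pass (SE 0.35, adjusted p = 0.0802 in edgeR, and 0.0181 with the 6 libraries kept). Jak2, the kinase bound to the growth hormone receptor, was the third gene, with 156, 176 and 177 normalized CPM in control and 96.1, 107 and 118 in AF-PTK@LEV@SPP1 (log2 fold change -0.65, adjusted p = 0.0722 in edgeR, and 0.0138 with the 6 libraries kept). Socs2, the inhibitor that growth hormone itself induces, overlapped between the groups at 20.1, 25.6 and 22.5 in control and 15.6, 15.4 and 20.3 in AF-PTK@LEV@SPP1 (log2 fold change -0.37, adjusted p = 0.263 in edgeR).

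Downstream of the receptor, 1 of 7 genes of the insulin receptor and adaptor arm passed, and none of 16 genes of the PI3K-AKT-mTOR arm and none of 4 tested genes of the MAP kinase arm. With the 6 libraries kept these counts were 3, 1 and 0. Of all genes tested, 3.7% passed over the 5 distinct samples and 18.1% with the 6 libraries kept. Such small counts are therefore not read as a result about these arms. Akt1, which encodes a kinase activated through PI3K, was the gene that passed in that fit, with 150, 149 and 145 normalized CPM in control and 111, 105 and 117 in AF-PTK@LEV@SPP1, values that did not overlap. Its log2 fold change was -0.43 (SE 0.11, adjusted p = 0.0963 in edgeR's quasi-likelihood test), and -0.41 with the 6 libraries kept (adjusted p = 0.0224). Shc1, an adaptor that links the receptor to the MAP kinase cascade, had 196, 206 and 210.5 normalized CPM in control replicates 1, 2 and 3, and 120.0, 125 and 116 in AF-PTK@LEV@SPP1 replicates 1, 2 and 3. The libraries within each group lay close together, and Shc1 fell with a log2 fold change of -0.76 (SE 0.11, adjusted p = 0.0377 in edgeR's quasi-likelihood test). Insr, the insulin receptor, stood at 22.3 to 27.8 normalized CPM in all libraries (log2 fold change -0.04, adjusted p = 0.884 in edgeR). Irs1, the adaptor that couples the receptor to PI3K, had 90.9, 111 and 105 in control and 168, 130.4 and 207 in AF-PTK@LEV@SPP1, without overlap but short of the threshold (log2 fold change 0.75, adjusted p = 0.131 in edgeR, and 0.0438 with the 6 libraries kept). For Irs2, a second adaptor of this kind, the groups overlapped (log2 fold change 0.15, adjusted p = 0.619 in edgeR). Grb10, an adaptor that restrains signals of the insulin and IGF1 receptors, lay lower without overlap but did not pass (log2 fold change -0.83, adjusted p = 0.109 in edgeR, and 0.0278 with the 6 libraries kept). Medians of the kinase arms were -0.04 and -0.07 on the log2 scale.

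The family of Igf2 mRNA-binding proteins was low. Igf2bp1 had 0 to 5 counts per library and was not tested. Igf2bp2 stood at 5.98 to 13.0 normalized CPM and Igf2bp3 at 1.53 to 5.40, and neither passed (log2 fold change -0.13 and 0.63, adjusted p = 0.852 and 0.423 in edgeR's quasi-likelihood test).

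The genes whose pattern was most like that of each ligand were found by Euclidean distance of log2 CPM, centred on the mean of each gene, over the 5 distinct samples and 10094 other genes whose mean log2 CPM was 3 or more. Nearest to Igf1 were Stc1 (distance 0.18), the bone morphogenetic protein gene Bmp2 (0.19) and Hsd11b1 (0.28), which encodes an enzyme that activates glucocorticoids. Bmp2 had 15.8, 38.8 and 36.9 normalized CPM in control replicates 1, 2 and 3, and 6.87, 8.38 and 8.54 in AF-PTK@LEV@SPP1 replicates 1, 2 and 3, and so shared with Igf1 the place of control replicate 1 between the pair and the labelled libraries. Nearest to Igf2 were the nuclear receptor gene Nr4a2 (0.46), Tsc22d1 (0.48) and Egfl6 (0.48), at larger distances. Nr4a2 had 13.8, 40.8 and 40.6 normalized CPM in control and 7.81, 5.72 and 9.11 in AF-PTK@LEV@SPP1.

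Markers of the cell types that a punctured disc can hold were summed per library, and their part in the results above was not tested. Such a sum weighs abundant genes most, so further genes of a list are named beside it, chosen after their values were seen. Fibroblast markers shared with Igf1, Igf2r and Igfbp3 the place of control replicate 1 between the pair and the labelled libraries, with sums of 8469, 17170 and 17180 normalized CPM in control replicates 1, 2 and 3, and 4965, 4538 and 6534 in AF-PTK@LEV@SPP1 replicates 1, 2 and 3. These sums were made up mostly of Dcn, with 5416, 10641 and 10620 in control and 3977, 3571 and 5321 in AF-PTK@LEV@SPP1, and of Lum, the 1 of 6 fibroblast markers that passed, as lower. The list did not share 1 direction, since Pi16 had 38.9, 9.32 and 9.09 in control and 204, 120.4 and 264 in AF-PTK@LEV@SPP1, without overlap (log2 fold change 3.03, adjusted p = 0.0885 in edgeR, and 0.0242 with the 6 libraries kept). Dpt and Cd34 had log2 fold changes of 0.13 and 0.06, and Pdgfra, at -0.84, passed as lower with the 6 libraries kept (adjusted p = 0.0129 in edgeR).

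Macrophage markers summed to 1003, 640 and 645 in control and 383, 596 and 462 in AF-PTK@LEV@SPP1, with control replicate 1 highest, as it was for Igfbp4. Of the 8 macrophage markers 1 passed, Cd68, as lower, and the most abundant, Mrc1, had 215, 180 and 179 in control against 87.6, 123 and 95.9 and passed as lower with the 6 libraries kept (adjusted p = 0.0160 in edgeR). Cd163 lay the other way, at 54.0, 29.5 and 29.0 in control and 47.1, 142 and 88.2 in AF-PTK@LEV@SPP1, and did not pass in either fit (log2 fold change 1.15, adjusted p = 0.246 in edgeR). Nucleus pulposus and notochord markers were higher in sum, at 754, 323 and 316 in control and 4215, 1500.0 and 1782 in AF-PTK@LEV@SPP1, without overlap. The median log2 fold change of the 5 tested markers was 2.54, and 0 of 5 passed over the 5 distinct samples. With the 6 libraries kept, 2 of 4 tested passed as higher, Cd24 (adjusted p = 0.0196 in edgeR), the most abundant, and Krt18 (adjusted p = 0.0205 in edgeR). With the replicate block added to the same 6 libraries, which again counts the control pair as separate samples, all 4 passed in edgeR, with adjusted p of 0.0435 for Tbxt, 0.0286 for Krt8, 0.0318 for Krt18 and 0.0406 for Cd24. Noto had no count, and T and Krt19 were not matched. Adipocyte markers summed to 254, 42.1 and 39.5 in control and 530.0, 968 and 398 in AF-PTK@LEV@SPP1, with Adipoq as the most abundant and 0 of 5 passing, and Lep passed as higher with the 6 libraries kept (adjusted p = 0.0403 in edgeR).

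The 6 matched endothelial markers, led by Pecam1, summed to 504, 610 and 589 in control and 373, 446 and 444 in AF-PTK@LEV@SPP1. None of the 6 passed over the 5 distinct samples, and with the 6 libraries kept 3 passed as lower in edgeR, Pecam1 (adjusted p = 0.0295), Cdh5 (adjusted p = 0.0452) and Tie1 (adjusted p = 0.0313). Kdr, Tek and Emcn overlapped between the groups, with log2 fold changes of 0.028, -0.015 and -0.049, so the list was not lower as a whole. Chondrocyte markers summed to 19940, 27910 and 27760 in control and 35640, 25480 and 39210 in AF-PTK@LEV@SPP1, and 0 of 8 passed. Col2a1 and Acan set these sums, with log2 fold changes of 0.57 and 0.71, whereas 5 of the 8 lay below 0 and the median of the list was -0.46. Of these 5, Matn3 (log2 fold change -1.24) and Hapln1 (-0.62) did not overlap between the groups, and Matn3 passed with the 6 libraries kept (adjusted p = 0.0365 in edgeR). Sums for annulus and tendon, led by Fmod, were 2191 to 4251 in control and 3196 to 4883 in AF-PTK@LEV@SPP1, and those for osteoblasts and osteocytes, led by Ibsp, were 1667 to 4323 and 1738 to 3031. For both of these, 0 of 6 tested markers passed in either fit and the sums of the groups overlapped.

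Mural cell markers, led by Acta2, summed to 1189 in AF-PTK@LEV@SPP1 replicate 1 and to 478 to 569 in the other libraries. That replicate was also highest for Igf1r, for Igfbp2 and for the sum of nucleus pulposus and notochord markers (4215). The mural markers Rgs5 and Notch3 were not highest there, at 182 and 76.6 normalized CPM against 177 to 209 and 57.4 to 81.8 in control. Skeletal muscle markers, led by Acta1, summed to 8445 and 2124 in AF-PTK@LEV@SPP1 replicates 2 and 3 against 808 to 1092 elsewhere. Neutrophil markers, led by S100a9, summed to 1086, 157 and 149 in control and 276, 2788 and 3863 in AF-PTK@LEV@SPP1. Erythroid markers were led by Hba-a1, and none of the markers of mural cells, muscle, neutrophils, erythroid cells or B cells passed over the 5 distinct samples or with the 6 libraries kept. Lymphocyte markers were low, with sums of 2.99 to 74.5 for B cells, led by Cd79a, and of 10.4 to 13.1 in control and 3.11 to 4.33 in AF-PTK@LEV@SPP1 for T cells. All 4 T cell markers had log2 fold changes below 0 without overlap, from -2.19 for Cd8a, the most abundant and the 1 that passed, to -1.24 for Cd3d. With the 6 libraries kept, Cd3e (adjusted p = 0.0205 in edgeR) and Cd3g (adjusted p = 0.0376 in edgeR) passed too. Hepatocyte markers, led by Alb, summed to 0.061 to 1.54 and none was tested, so the libraries held next to no RNA of liver, the main source of circulating IGF1.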

How the data were processed

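The authors deposited raw counts of reads per Ensembl rat gene for 6 bulk RNA libraries, not pooled and not normalized. The submitters' processing notes name FastQC, Trimmomatic, HISAT2, featureCounts and DESeq2 without versions and the mouse build mm10. The rat build, the strand setting and how shared reads were counted are not given in the sources used here, and the columns were matched to samples through their names, those of control by the study's name for the punctured discs. Of the 30562 genes, 544 share a name with another, none of them a member. Counts were normalized with trimmed mean of M-values (TMM) in edgeR 4.0.16 (R 4.3.3), filtered with filterByExpr (minimum count 10) and tested with glmQLFit and glmQLFTest, with Benjamini-Hochberg adjustment over all 15537 genes tested and calls at an adjusted p under 0.05. Control replicates 2 and 3, near sampling noise, were summed for the fit and averaged for mean ± SD, so that p-values rest on 2 and 3 samples. Normalized CPM are counts divided by the TMM-scaled library size and brought to a common total. The common biological coefficient of variation was 0.302, and 0.269 with the 6 libraries kept. A prior count of 2 entered log2 CPM.

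Named genes were the 10 members, Spp1, 15 fixed names around the axis, the called genes of the pathway list (up to 6 in each direction by smallest p), the 3 genes most like each ligand and the most abundant gene of each marker list, and further genes of the pathway and marker lists, with Bglap among them, were named after their values were seen. The members, the pathway list and the 16 marker lists were chosen with earlier results of these data known, and 1 marker list is not reported here. The edgeR, DESeq2 and limma-voom fits were run first on simulated data that varied less between samples than these data, which checks the code only. The replicate block and the robust fit were not simulated. Alternatives were other normalizations, filters, a robust fit, DESeq2 1.42.0, limma-voom (limma 3.58.1), a fold threshold, the 6 libraries, the replicate block and each library left out. Levels per length were planned but not run, since gene lengths were not used here. Promoters came from RefSeq (GRCr8).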

Additional observations from a re-analysis of the deposited data

How the results depend on the processing

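Directions of Igf1, Igf2, Igf1r, Igf2r, Igfbp3, Igfbp4, Igfbp5, Igfbp6 and Igfbp7 were the same in all 16 alternatives. The number of genes called, 575 in all, was 2727 with the 6 libraries kept, 2572 in DESeq2, 3 with control replicate 1 as the only control sample, and 0 to 566 with 1 library left out. For the IGF axis members, 3 in all, these counts were 5, 6, 0 and 0 to 3, and for the pathway list, 9 in all, they were 18, 18, 0 and 0 to 9. The counts of 0 are edgeR's, where DESeq2 on the same samples called 4 or 5 members and 10 to 14 pathway genes among 822 to 1418 genes, limma-voom called 0 genes, and 5 or 6 members, 18 to 21 pathway genes and 2572 to 3109 of all genes had an unadjusted p under 0.05. Igf1 passed with the 6 libraries kept (log2 fold change -1.90), upper-quartile normalization (-1.72), no filter (-1.81) and DESeq2 (-1.78), and ranged from -2.18 to -1.71 with 1 library left out, and was -1.17 with control replicate 1 as the only control sample. Igf2 passed in DESeq2 (-1.76), and Igf2r with the 6 libraries kept (-1.20) and in DESeq2 (-1.09). Igfbp3 did not pass in limma-voom (-2.31) or with control replicate 1 as the only control sample (-1.75), nor did Igfbp4 (-2.45) and Igfbp6 (0.98) in the latter, where fewer samples entered. With 1 library left out, Igfbp3 ranged from -2.94 to -2.34, Igfbp4 from -2.35 to -2.12 and Igfbp6 from 0.99 to 1.19. Signs turned for Igfbp2 in limma-voom (-0.96) and with 1 library left out (-2.99 to 1.53), for Insr (-0.142 to 0.049), Irs2 (-0.083 to 0.173) and Igf2bp2 (-0.602 to 0.075) with 1 library left out, and with control replicate 1 as the only control sample for Spp1 (-0.066), Pappa2 (0.71), Insr (0.061) and Igfals (-0.35). None of these passed in either direction, and the cause was not tested. The replicate numbers of the titles do not pair the rats by any source, and libraries of the same number had correlations of -0.33, -0.28 and -0.08 between their deviations from the group means. The fit with this replicate block, over the 6 libraries, called 741 genes in all, 4 members and 9 pathway genes (Adam12 left and H19 entered), with log2 fold changes of -1.84 for Igf1, which passed, and -0.49 for Igfbp2. Levels per length were not run. The depth limits Igfbp2, Igfals and Igf2bp1, which had few counts.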
